A study of Mus musculus with 8 samples.

Results

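The beta and gamma crystallins described here are 7 genes of mouse retina. They are the acidic beta crystallins Cryba1, Cryba2 and Cryba4, the basic beta crystallins Crybb1, Crybb2 and Crybb3, and the gamma crystallin Crygs. They were picked by symbol from the authors' deposited table of 1802 genes, after results of the same comparison had been seen, and all 7 were found in it. Their values are therefore given as a description, with no test. Retinal tissue was dissociated with papain and single cells were sequenced from the 3′ end of transcripts in 8 libraries, 3 with the genotype label Control (titled WT) and 5 with the label ABCA1KO (titled KO). ABCA1 is a membrane transporter that hands cholesterol and phospholipid to apolipoproteins. The sources used here do not give strain, age, the kind of allele, the cells that carry it or whether each library is a separate animal.

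Crystallins of the beta and gamma families are compact, very stable proteins built from Greek key folds, and at high concentration they give the lens its transparency and refractive power. Beta crystallins join into dimers and larger complexes in which acidic and basic subunits mix, whereas gamma crystallins stay monomers, and the names acidic and basic refer to the charge of the subunits. Mutations in many of these genes cause cataract. Outside the lens, beta and gamma crystallins have been described in neurons and glia of the retina, where their levels respond to light, injury and stress, and Crybb2 has been linked to axon growth of retinal ganglion cells.

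The authors' deposited table compares all KO cells with all WT cells, pooled over libraries and cell types, and gives no value per library, no error and no number of cells. For each gene it lists a log difference (KO minus WT), the share of cells with a value above 0 in each genotype, and a p-value adjusted by the Bonferroni method. The log difference was read as a natural log of values that appear to be batch-integrated, so it is neither an expression ratio nor a level, and exceeding 0 does not mean that a transcript was detected. Values are not comparable as levels between genes. The spread between libraries is unknown, so no difference below can be judged by it, and fewer cells of a type cannot be told apart from a lower value per cell. The targeted gene, Abca1, was called higher and not lower in KO, which runs opposite to the knockout label. The authors' deposited table puts it at a log difference of 0.0294 (adjusted p = 4.49e-05), with values above 0 in 48.7% of KO and 30.5% of WT cells. Most listed genes went the same way, with 69.1% called higher and 97.9% having a larger share in KO. The kind of allele is not known here, nor whether the 3′ tags of Abca1 lie outside a changed part, so Abca1 does not check the genotype labels. The reason for its higher value was not tested. KO and WT below stand for the cells that carry these labels.

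In the GENCODE annotation of GRCm38, 4 of the 7 genes lie on chromosome 5, in 2 pairs of neighbours. Cryba4 (chr5:112246493-112252518, minus strand) and Crybb1 (chr5:112255815-112269585, plus strand) stand head to head, with 3296 bases between their starts. Crybb2 (chr5:113058258-113070117) and Crybb3 (chr5:113075839-113081584) are both on the minus strand, 5721 bases apart, and 788672 bases separate Crybb1 from Crybb2. The others are single genes on the minus strand of other chromosomes, namely Cryba1 (chr11:77718615-77725283), Cryba2 (chr1:74889934-74893143) and Crygs (chr16:22805203-22811577).

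The stretches before the starts of the 7 genes are shown because all 7 log differences have the same sign, above 0. That sign was common, as 466 of all 1802 listed genes had a log difference below 0. In addition, 6 of the stretches hold a short word that is the core of the site bound by Maf proteins, activators of crystallin genes in the lens. A link between these words and the log differences was not tested. The sequences are from RefSeq (GRCm38.p6), which matched all 7 genes, and are written 5′ to 3′ on the strand of each gene. They end at the base before the start that RefSeq or GENCODE places further upstream. Capitals mark TGCTGA (Maf core), ACAAAG and ACAATG (words bound by Sox proteins) and TATAAA (the TATA box), where TCAGCA and CTTTGT are TGCTGA and ACAAAG on the opposite strand.
Cryba1, chr11:77725294-77725503: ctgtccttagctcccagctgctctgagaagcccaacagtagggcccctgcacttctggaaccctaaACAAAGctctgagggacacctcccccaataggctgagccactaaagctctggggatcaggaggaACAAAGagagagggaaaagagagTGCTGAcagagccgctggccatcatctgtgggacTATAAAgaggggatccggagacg
Cryba2, chr1:74893144-74893353: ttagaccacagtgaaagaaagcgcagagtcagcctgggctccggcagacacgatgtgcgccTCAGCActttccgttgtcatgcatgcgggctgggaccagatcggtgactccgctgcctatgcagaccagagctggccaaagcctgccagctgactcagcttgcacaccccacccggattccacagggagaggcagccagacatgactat
Cryba4, chr5:112252519-112252728: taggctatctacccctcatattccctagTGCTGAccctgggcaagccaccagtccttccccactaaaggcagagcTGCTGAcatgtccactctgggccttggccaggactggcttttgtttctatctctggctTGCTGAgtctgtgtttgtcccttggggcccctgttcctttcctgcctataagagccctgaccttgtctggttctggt
Crybb1, chr5:112255610-112255814: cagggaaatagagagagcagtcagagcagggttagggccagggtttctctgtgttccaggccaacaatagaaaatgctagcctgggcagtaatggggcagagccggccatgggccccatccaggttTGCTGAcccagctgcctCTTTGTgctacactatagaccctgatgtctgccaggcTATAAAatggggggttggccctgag
Crybb2, chr5:113070118-113070327: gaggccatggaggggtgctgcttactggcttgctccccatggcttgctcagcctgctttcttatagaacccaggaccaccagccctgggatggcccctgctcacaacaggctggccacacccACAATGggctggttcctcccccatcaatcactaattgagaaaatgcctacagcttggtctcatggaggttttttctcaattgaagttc
Crybb3, chr5:113081585-113081794: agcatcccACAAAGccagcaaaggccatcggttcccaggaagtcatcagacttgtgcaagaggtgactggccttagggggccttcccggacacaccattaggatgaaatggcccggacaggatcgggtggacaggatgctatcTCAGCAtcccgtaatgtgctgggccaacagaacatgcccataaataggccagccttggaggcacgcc
Crygs, chr16:22811578-22811660: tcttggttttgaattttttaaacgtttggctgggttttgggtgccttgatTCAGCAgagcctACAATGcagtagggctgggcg

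Over the 250 bases before the RefSeq start, on both strands, TGCTGA stood in the promoters of Cryba1, Cryba2, Cryba4, Crybb1, Crybb3 and Crygs and not in that of Crybb2. The same word is in 16.1% of all 32851 promoters of the RefSeq table and in 14.0% of the 1842 promoters that belong to genes of the authors' table. Cryba4 carried it 3 times, and the match nearest to a start was that of Cryba1, 57 bases before it. ACAAAG was found before Cryba1, Crybb1 and Crybb3 (16.5% of all promoters), ACAATG before Crybb2 and Crygs (10.7%), and TATAAA before Cryba1, Crybb1 and Crygs (12.4%). An inverted repeat bound by heat shock factors, GAANNTTC, was in 0 of the 7 windows and in 6.69% of all promoters. The RefSeq start of Crygs lies 167 bases inside the gene as GENCODE draws it, so the TATAAA of Crygs falls outside the stretch shown. These matches are descriptions of letters and not sites of binding.

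All 7 crystallins had higher values in KO. They were 7 of the 45 genes with a log difference of at least 0.1 in the authors' deposited table, and 7 of the 13 with at least 0.2. The level of 0.2 was not planned and lies just under the lowest crystallin, so that it takes in all 7 is no finding. The log differences of the 7 ran from 0.212 to 0.296, with a median of 0.245. The median over all 1802 listed genes of the authors' deposited table was 0.010. By rank from the highest log difference, they stood at 1 (Crybb2), 2 (Crygs), 4 (Cryba2), 6 (Cryba4), 8 (Cryba1), 10 (Crybb3) and 13 (Crybb1). With calls made at adjusted p-values under 0.05, the authors' deposited table has 6 of the 7 higher and 0 lower, where 69.1% of all listed genes were called higher and 93.2% were called in either direction. The count was also 6 at an adjusted p under 0.01 (68.3% of all listed genes called higher), 6 when called genes were counted against the median of all listed genes (45.9%), and 6 when a log difference of at least 0.1 was required as well (2.33%). At an adjusted p under 1e-10 it was 5, without Cryba1 (60.7%). Because the genes were chosen from this comparison, nothing is read from these counts.

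**Figure D1:**
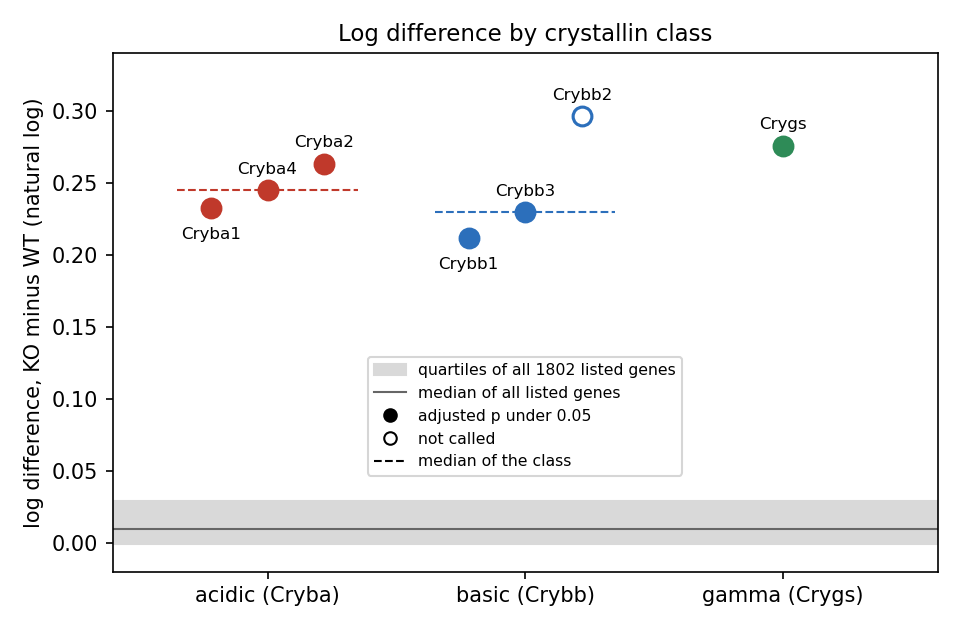
Log difference (KO minus WT, natural log, vertical axis) of the 7 crystallins by class, from the authors' deposited table, with filled points for an adjusted p under 0.05 and an open point where the gene was not called. Dashed lines are class medians, and the grey band and line are the quartiles (-0.000291 to 0.0289) and the median (0.010) of all 1802 listed genes, far below every crystallin.

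Among the acidic members, Cryba2 exceeded 0 in 92.4% of KO and 72.7% of WT cells, and the authors' deposited table gives it a log difference of 0.263 (adjusted p = 7.93e-78). Cryba4 exceeded 0 in 88.1% of KO and 64.5% of WT cells, with a log difference of 0.245 and an adjusted p listed as 0 in the authors' deposited table, where 183 genes have a raw p of 0. Cryba1, which encodes the βA3/A1 proteins from alternative start codons and is also known from the lysosomes of the retinal pigment epithelium and from astrocytes, exceeded 0 in 94.2% of KO and 77.8% of WT cells, by the authors' deposited table. Its log difference was 0.233 in the authors' deposited table (adjusted p = 7.85e-08). The acidic genes lay close together, within 0.0304 of each other, and all 3 were called higher.

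The basic members spread further, over 0.0845. Crybb1, whose protein has long extensions beyond its Greek key domains, exceeded 0 in 86.9% of KO and 63.9% of WT cells and had, in the authors' deposited table, the smallest log difference of the 7, 0.212 (adjusted p = 2.7e-270). Crybb3 exceeded 0 in 83.5% of KO and 62.5% of WT cells, and its log difference was 0.229 in the authors' deposited table (adjusted p = 4.01e-155). Both were called higher. Crybb2, an abundant beta crystallin of the lens, exceeded 0 in 99.3% of KO and 88.1% of WT cells, the authors' deposited table shows. With 0.296 it had the largest log difference of all 1802 genes, and yet it was not called (adjusted p = 0.308 in the authors' deposited table). The raw p of Crybb2 was 0.000154, which the Bonferroni step multiplied by 2000. With Benjamini-Hochberg adjustment of the authors' raw p over the same 2000 features it was 0.00018, and 7 of the 7 crystallins were then called higher, as were 74.1% of all listed genes.

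Crygs, the gamma S crystallin of the lens cortex, exceeded 0 in 92.0% of KO and 73.2% of WT cells, by the authors' deposited table. Its log difference of 0.276 was the largest of all called genes in the authors' deposited table (adjusted p = 1.28e-68). It lay above all 3 acidic members and between Crybb2 and the other basic members.

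The acidic and basic classes overlapped. Their median log differences were 0.245 and 0.229, which is 0.0151 higher for the acidic genes, while the range of the basic genes enclosed that of the acidic ones. The means were almost equal, at 0.247 for the acidic and 0.246 for the basic genes, so the gap between the medians came down to 0.00106 when means were used. Without Crybb2, which was not called, it was 0.0241. With 3 genes a class, chosen from the same comparison, the difference was not tested.

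The 4 chromosome 5 genes also overlapped with the others. Their median log difference was 0.237, against 0.263 for Cryba1, Cryba2 and Crygs, a gap of -0.026 that was -0.0116 with means and -0.0336 without Crybb2. The chromosome 5 group held both the highest log difference (Crybb2) and the lowest (Crybb1). Apart from Crybb2, the shares separated the groups in WT, where Cryba4, Crybb1 and Crybb3 were above 0 in 62.5% to 64.5% of cells and Cryba1, Cryba2 and Crygs in 72.7% to 77.8%, in the authors' deposited table. Crybb2, at 88.1%, stood above all of them. Close neighbours had like shares in 1 pair and not in the other. The head-to-head pair of Cryba4 and Crybb1 differed by 0.6 percentage points in WT and 1.2 in KO, whereas Crybb2 and Crybb3 differed by 25.6 and 15.8 percentage points in the authors' deposited table. In log difference the head-to-head pair was not especially close. Its genes lay 0.033 apart, against 0.0304 over all acidic genes and 0.0666 for Crybb2 and Crybb3. Close shares were not particular to neighbours. Cryba2 and Crygs, on different chromosomes, were above 0 in 72.7% and 73.2% of WT cells and in 92.4% and 92.0% of KO cells.

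Other listed genes near the crystallins did not have values like theirs. Most of these genes lay near Cryba1 or Cryba2, and Crygs had no other listed gene within 1 Mb. Within 1 Mb of a member, 18 further genes were listed, and the authors' deposited table calls 10 of them higher, 6 lower and 2 not at all, where 69.1% of all listed genes were called higher and 24.1% lower. Their median log difference was 0.0159, and the range from -0.125 (Vtn, on chromosome 11) to 0.0525 (Ttc28, on chromosome 5) stayed below every crystallin in the authors' deposited table. The nearest other listed gene to Crybb3, 2900026A02Rik, is on the same strand with its 3′ end 4738 bases away, and stood at -0.00561 in the authors' deposited table. Between Crybb1 and Crybb2, GENCODE has 20 genes, 10 of them protein-coding, and 0 of the 20 are listed. Nufip2 spans Cryba1 on the opposite strand and is at -0.012 in the authors' deposited table. The sources used here do not state whether counting used strand, so reads of Cryba1 and Nufip2 may not be told apart. A processed pseudogene, Gm43247, lies inside Crybb2 on the opposite strand and is not listed.

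**Figure D2:**
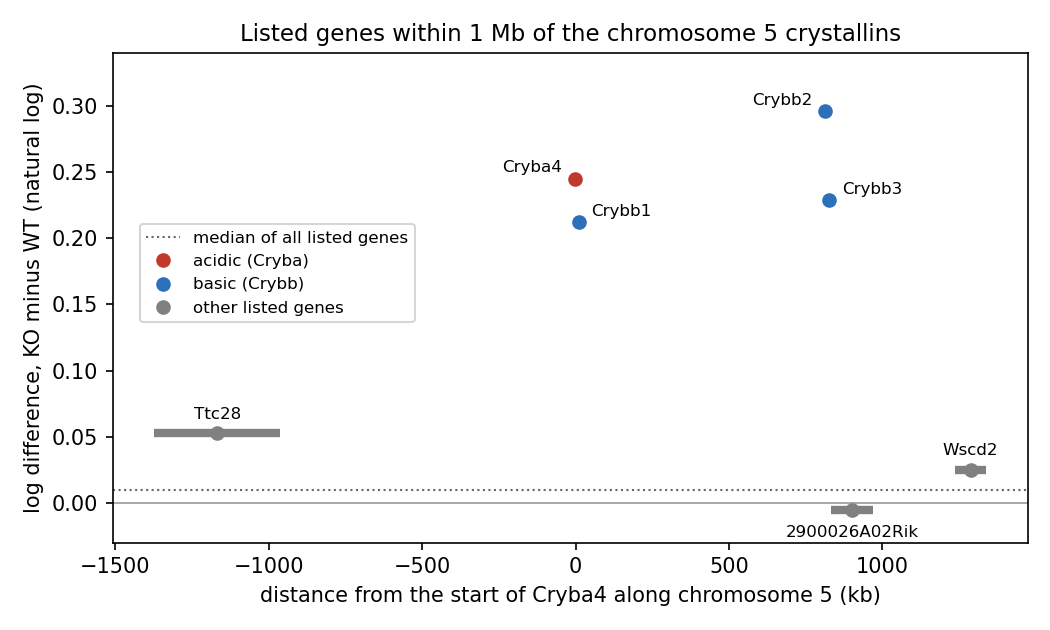
Log difference (KO minus WT, natural log, vertical axis) of every listed gene within 1 Mb of the chromosome 5 crystallins, from the authors' deposited table, against the distance in kb from the start of Cryba4. Bars span each gene. The dotted line is the median of all listed genes (0.010). The 4 crystallins lie between 0.212 and 0.296, above Ttc28 (0.0525), Wscd2 (0.025) and 2900026A02Rik (-0.00561).

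Because the members are related in sequence, their overlap was measured on 1 GENCODE transcript for each gene. Over the 21 pairs, coding sequences were 48.2% to 67.3% identical in their bases. No unrelated genes were aligned, so how far these values lie above those of unrelated sequences is not known. Acidic genes shared 58.9% to 64.1% with each other, basic genes 56.2% to 67.3%, and the 2 classes 53.2% to 60.9%. Crygs, with 178 codons in 3 exons, was further from both, at 52.3% to 54.6% of the acidic and 48.2% to 53.3% of the basic genes. The chromosome 5 neighbours Crybb2 and Crybb3 were the most alike in sequence (67.3%) but far apart in their shares, whereas the neighbours Cryba4 and Crybb1 (53.7%) were close in their shares. No pair of transcripts had an exact stretch in common longer than 20 bases (Cryba2 and Crybb2).

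The gain in the share of cells above 0, KO minus WT, ranged from 11.2 percentage points (Crybb2) to 23.6 (Cryba4) in the authors' deposited table. The median gain of all listed genes was 20.8, so 3 members (Cryba4, Crybb1 and Crybb3) lay above it and 4 below. Against that median the crystallins thus did not stand out in absolute points, in a table in which 97.9% of genes had a larger share in KO. The median WT share of all listed genes was lower than theirs, at 40.3%. Among the 64 other listed genes with a WT share between 62.5% and 88.1%, the median gain was 8.85 points, and every crystallin lay above that. This range was set by the crystallins themselves, which were chosen from this comparison, so nothing is read from their place in it. The share of cells that did not exceed 0 went from 11.9% in WT to 0.7% in KO for Crybb2 in the authors' deposited table. It went from 22.2% to 5.8% for Cryba1, and from 37.5% to 16.5% for Crybb3. Expressed as a ratio of the odds of a value above 0, KO over WT, Crybb2 had 19.2, the highest of all 1802 genes, with bounds of 17.8 and 20.7 from the rounding of the shares alone. The next gene, Penk, a precursor of enkephalins, had 6.81. For Cryba1 the odds ratio was 4.63, for Cryba2 4.57, for Crygs 4.21, for Cryba4 4.07, for Crybb1 3.75 and for Crybb3 3.04, against a median of 2.4 over all listed genes. Thus 6 of the 7 were among the 100 highest odds ratios, and Crybb3 ranked at 291.

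**Figure D3:**
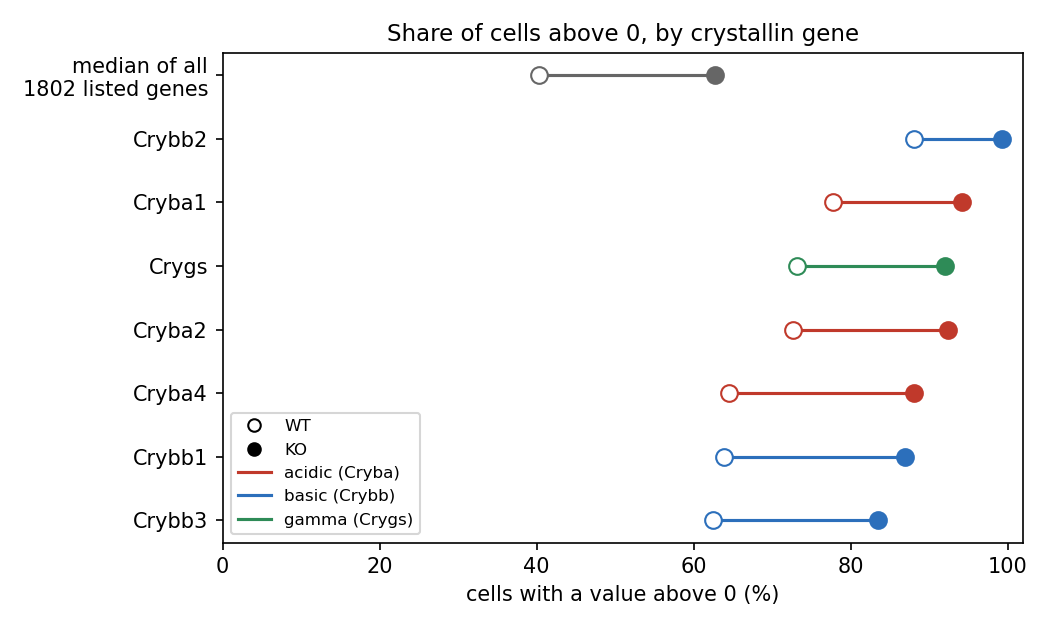
Share of cells with a value above 0 (percent, horizontal axis) in WT (open circles) and KO (filled circles) for each crystallin, ordered by WT share, and the median of all 1802 listed genes on top, from the authors' deposited table. The share is larger in KO for all 7, by 21.0 to 23.6 points for Crybb3, Crybb1 and Cryba4 at the bottom and by 11.2 to 19.7 points for the other four.

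Among the 7, the order of the p-values was that of the gain in share, from Cryba4 (23.6 points, smallest p) to Crybb2 (11.2 points, largest p), and did not follow the log difference. Cryba4, Crybb1 and Crybb3 stood at ranks 1 (shared with every other gene listed at 0), 226 and 441 of 1802 raw p-values in the authors' deposited table. Cryba2 and Crygs came next, at 750 and 810, and Cryba1 and Crybb2 at 1523 and 1716. Crybb2 was thus first by log difference and odds ratio and last of the 7 by p-value.

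Most other genes of similar WT share had lower values in KO. Besides the 7, 64 listed genes had a WT share between 62.5% and 88.1%, and the authors' deposited table calls 12 of these higher, 39 lower and 13 not at all, against 69.1% higher and 24.1% lower over all listed genes. Their median log difference was -0.0257, and 1 of them, Fabp5, reached the lowest crystallin. Among genes whose WT share was within 5 percentage points of its own, Crybb2 was highest of 19, Crygs highest of 24 and Cryba4 highest of 36, and Cryba1 and Cryba2 were surpassed by other crystallins alone. Crybb1 and Crybb3 had 1 non-crystallin above them each, which was Fabp5. The crystallins were chosen from this comparison and their WT shares set the ranges used, so nothing is read from these positions.

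**Figure D4:**
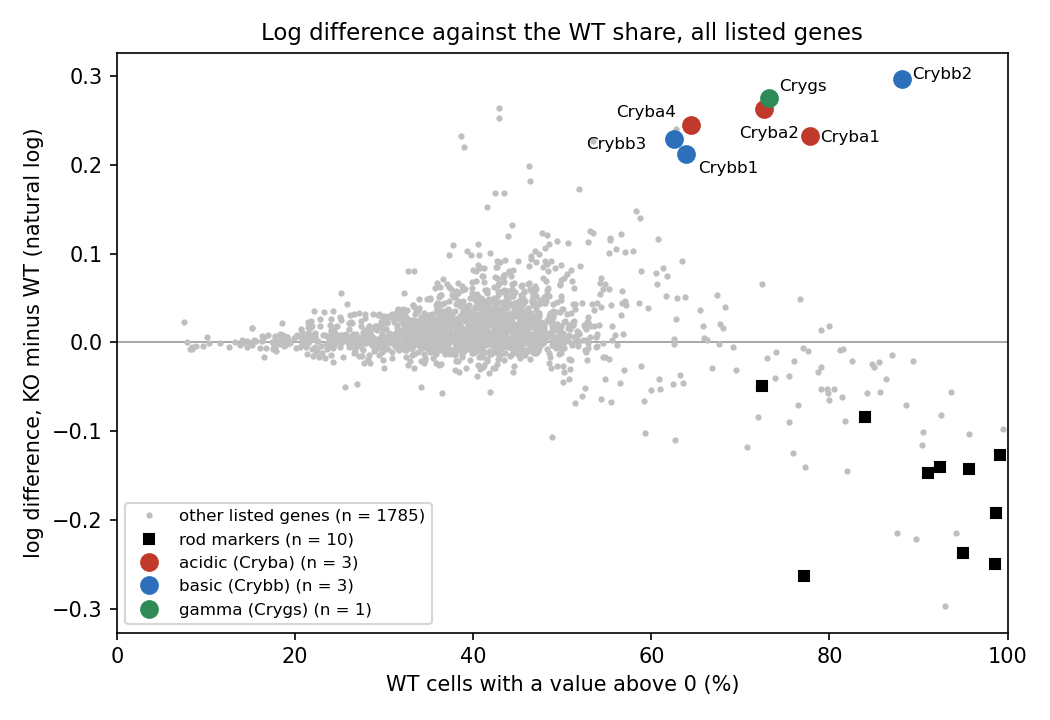
Log difference (KO minus WT, natural log, vertical axis) against the share of WT cells above 0 (percent, horizontal axis) for all 1802 listed genes of the authors' deposited table, with the crystallins coloured by class and 10 rod markers as black squares. Where the WT share is above 60%, most grey points and all 10 rod markers are below 0, and the 7 crystallins are between 0.212 and 0.296.

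The genes most like the crystallins in log difference, KO share and WT share together, each divided by its SD over all listed genes, were Fabp5, Cd24a, Arr3, Ptgds and Dapl1. Fabp5, a fatty acid binding protein, was 0.911 SD units from the median crystallin and the sole gene nearer to it than the farthest member, Crybb2 (1.83). It had shares of 85.7% in KO and 62.8% in WT in the authors' deposited table, close to those of Crybb1. Its log difference of 0.24 lay between those of Cryba1 (0.233) and Cryba4 (0.245). Cd24a, a cell surface protein, followed at 2.27, the cone arrestin gene Arr3 at 2.78, Ptgds, a prostaglandin D synthase, at 2.87 and Dapl1 at 2.89. Ranked by log difference alone, the noncoding RNA genes Meg3 (0.253) and Snhg11 (0.264) stood above the median crystallin in the authors' deposited table, but their WT share was 42.9% each. Fabp5, Cartpt (0.233), a neuropeptide precursor, and Cd24a (0.227) came next below the median crystallin.

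Most other crystallin and lens genes were not listed, which does not show that they were unchanged, since the adjustment points to 2000 features in all. Of 16 alpha, gamma, enzyme and other crystallin genes looked for, among them Crybg1, Crybg2 and Crybg3, 15 were not listed. The exception was Crym, a thyroid hormone binding protein also called mu crystallin, which was called lower at -0.00801 although its share was larger in KO (60.3% against 38.3%) in the authors' deposited table. A log difference below 0 beside a larger KO share was common, with 454 of the 466 genes below 0 in the authors' deposited table, or 25.2% of all listed genes.

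Among 16 genes of lens fibre membranes and cytoskeleton, 4 were listed, and the authors' deposited table calls 3 of these higher and 0 lower, close to the 69.1% of all listed genes that were called higher. These were Hspb1 (0.105), a small heat shock protein, the intermediate filament gene Vim (0.0801) and Cdh2 (0.036), the gene of N-cadherin, all of which have wide expression outside the lens. Tdrd7, an RNA granule protein, had 0.0109 and was not called (adjusted p = 1 in the authors' deposited table).

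Of 15 regulators of crystallin genes that are reported here, 5 were listed, and because 1 further gene of the list is left out, no count of calls or median is given for them. Pax6, a master regulator of eye development that is also active in retinal neurons, had 0.0797, the Maf factor gene Maf 0.0689, Prox1 0.0503 and Six3 0.0378 in the authors' deposited table. Sox2 had 0.00552 in the authors' deposited table, which is under the median of all listed genes. The highest of these regulators lay well below the lowest crystallin, 0.212.

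Markers of other cells were called in both directions, and their part in the result was not tested. Their counts are to be read against the 69.1% of all listed genes called higher and the 24.1% called lower. Of 9 markers of lens fibre cells, among them Mip, Lim2 and Bfsp1, 0 were listed, so the table does not show whether lens cells or their RNA were present. Of 6 lens epithelium markers 1 was listed (Gja1, 0.0444, also a gene of astrocytes), and of 6 markers of cornea and conjunctiva 1 (Aldh3a1, 0.0233), both called higher in the authors' deposited table. In the authors' deposited table, all 3 listed of 8 markers of ciliary and pigment epithelium have higher calls, from 0.00162 (Ttr, below the median of all listed genes) to 0.08 (Dct). Müller glia markers had 4 higher and 1 lower call of 7 looked for, ganglion cell markers 3 higher and 2 lower of 8, and astrocyte markers 2 higher of 5 in the authors' deposited table. All 10 rod markers were called lower, from -0.263 to -0.0494, and in the authors' deposited table they exceeded 0 in 72.4% to 99.1% of WT and 78.7% to 99.5% of KO cells.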

How the data were processed

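Per the submitters' processing notes, the authors used Cell Ranger, Seurat 3.1.4 and DESeq2 with build GRCm38. The sources used here do not give the statistical test, how cells were filtered, how doublets were handled or how libraries were integrated, and the depth is unknown. The authors' deposited table has 1 row per gene. The deposited log difference is an average over cells per the file headers (avg_logFC), which give no base, and was taken as a natural log by the convention of the Seurat version the authors used. KO was read as the first group because the cluster column reads KO in every row. The deposited shares of cells above 0 are fractions and were converted to percent. The deposited adjusted p-value was 2000 times the raw p-value wherever the quotient could be formed (1549 rows), so 2000 features were taken as tested, of which 198 were not listed. The largest raw p-value in the deposited table was 0.00938.

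From these values, ranks, odds ratios, class medians and Benjamini-Hochberg adjusted values were computed with Python 3.11.15 and pandas 2.3.3. Ranks, odds ratios, calls and the Benjamini-Hochberg adjustment were checked on simulated data, and the class medians were not. Coding sequences were aligned end to end with Biopython 1.88 (match 1, mismatch -1, gap opening -2, extension -0.5). They took the place of the protein sequences that had been planned, which were not at hand. Named genes were the 7 members, their nearest genes by value, listed genes within 1 Mb, the lens lists and Abca1. In the list of regulators, 1 further gene is not reported here, so no count of calls or median is given for that list. Penk was chosen after its values were seen. Members and lists were chosen with earlier results of these data known. Fits per library were not run, since the table has no value per library.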

Additional observations from a re-analysis of the deposited data

How the results depend on the processing

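The count of crystallins called higher was 6 with the authors' adjusted p under 0.05, 6 at 0.01, 6 with a log difference of at least 0.1 and 6 against the median of all listed genes. It was 7 with Benjamini-Hochberg adjustment, which added Crybb2, and 5 at 1e-10, which lost Cryba1. The median log difference of 0.245 was 0.235 less the median of all listed genes, 0.239 for called members and 0.263 for members off chromosome 5. The gap between acidic and basic medians (0.0151) was 0.00106 with means and 0.0241 for called members, and the gap between chromosome 5 and the other genes (-0.026) was -0.0116 and -0.0336. With WT share held within 5 percentage points, all 7 ranked between 1 and 4. No paired analysis was possible because the table pools the libraries of each genotype, and for the same reason no library could be left out and no other normalization or filter tried.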
